A study of Oryctolagus cuniculus with 6 samples.

Results

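The mitochondrial ribosomal proteins are 75 of the 22190 genes in the deposited count table, chosen as the genes whose symbol is MRPL or MRPS followed by a number. By symbol, 47 of them (MRPL) belong to the large subunit and 28 (MRPS) to the small subunit of the mitochondrial ribosome. All 75 passed the filter on low counts and were among the 15029 genes tested. Expression was measured by RNA-seq of polyA RNA in primary limbal stem cells (LSCs) of the rabbit, the epithelial stem cells at the rim of the cornea. In the fresh group (3 libraries), the cells grew out of limbal explants of fresh corneas. In the preconditioned group (3 libraries), the corneas were first kept for a week in liquid nitrogen in a freezing medium that held the inflammatory cytokine IL-1β. They were then thawed, and limbal explants were taken from them and cultured. The effects of the freezing and of IL-1β cannot be told apart, since the preconditioned corneas received both. The strain and age of the animals, and whether each library came from a separate animal, are not given in the sources used here, so that the p values measure the spread between these libraries only.

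Mitochondria carry their own ribosomes, which translate the few membrane proteins of the respiratory chain and ATP synthase that are encoded by mitochondrial DNA. The ribosomal RNAs are made inside the mitochondrion, whereas every mitochondrial ribosomal protein is encoded in the nucleus, made in the cytosol and imported. The small subunit reads the mRNA, and the large subunit joins the amino acids. Many of the proteins descend from bacterial ribosomal proteins, and others exist only in mitochondria.

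The libraries held 31952352 to 34327534 counts on genes, and the lowest count of any member in any library was 34 (MRPL15). The other 74 members had at least 100 counts in every library. Counts are given as CPM, scaled to the library size by the TMM factors of edgeR. Of the epithelial markers, KRT5, a keratin of basal epithelial cells, lay between 7337 and 11740 CPM in the 6 libraries, and TP63, the gene of the stem cell marker p63, between 112 and 246 CPM. KRT15, another keratin of the limbal basal layer, was at most 9.71 CPM. Of 4 corneal epithelial markers tested, 2 were below 0 and 2 above 0 on the log2 scale (−1.21 to 0.81). In the test described below, 1 was called lower, beside 1.2% of all genes. This was TKT, the pentose phosphate enzyme transketolase, with 1472, 1474 and 1045 CPM in the fresh and 657, 468 and 792 CPM in the preconditioned libraries (log2 fold change −1.06, adjusted p = 0.048). Another marker was higher at an unadjusted p of 0.05 or less in that test. With DESeq2, 2 passed, 1 of them lower, beside 19.1% of all genes. The melanocyte markers summed to at most 0.456 CPM. A stromal collagen gene, COL1A1, was also present, with 56.8, 109 and 108 CPM in the fresh and 537, 693 and 505 CPM in the preconditioned libraries. Of the 11 stromal markers tested, COL1A1 was the only one that passed that test, and 7 were above 0 and 4 below 0 on the log2 scale (−1.27 to 2.66). In bulk samples, fewer cells of a type and less RNA per cell cannot be told apart. Preconditioned library 1 stood apart from the other preconditioned libraries in many members, so that counts of members and of the pathway lists are also given without it.

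The levels of the members, per length, covered a wide range but kept nearly the same order in both groups. In FPKM, the deposited values scaled to gene length and library total, the large subunit genes had a median of 25.1 in the fresh group, and 29 of 47 lay within 2-fold of it. The small subunit genes had a median of 22 FPKM, and 22 of 28 lay within 2-fold of it. The highest and lowest large subunit genes were 62.5-fold apart and the highest and lowest small subunit genes 24.0-fold apart. Spearman's rho between the mean FPKM of the groups was 0.973 over the 75 genes, which share libraries and gene lengths.

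MRPL17, a large subunit protein of bacterial descent, had the highest level in the fresh group, with 160 ± 58.4 FPKM (SD, n = 3). It was followed by MRPL33 (88.7 ± 7.20 FPKM) and MRPL20 (82.3 ± 1.98 FPKM), also proteins of bacterial descent. The gap between MRPL33 and MRPL20 was smaller than the SD of MRPL33 and larger than that of MRPL20. In the preconditioned group, MRPL33 came first and MRPL17 was the sixth in the large subunit, at 56.5 ± 3.91 FPKM. MRPL15, MRPL13 and MRPL36 were lowest in the fresh group, with 2.56 ± 1.86, 4.15 ± 0.0441 and 7.03 ± 1.07 FPKM. In the small subunit, MRPS16 was highest (75.4 ± 0.818 FPKM), before MRPS7 (63.9 ± 4.71 FPKM) and MRPS14 (61.2 ± 6.10 FPKM), and the last 2 differed by less than their SDs. MRPS22 (3.14 ± 0.389 FPKM), MRPS27 (5.28 ± 0.559 FPKM) and MRPS6 (11.7 ± 0.815 FPKM) were lowest.

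The levels of a few long genes depend on the length used. The length implied by the deposited counts and FPKM was 1097 bases in the median, but 13688 bases for MRPS22 and 7971 bases for MRPL13, and it exceeded 3000 bases in 4 members. MRPS22 lay near the bottom of its subunit in FPKM, while its 36.9 to 50.3 CPM were among the higher counts of the small subunit. Across the 75 genes, Spearman's rho was −0.60 between implied length and fresh FPKM and −0.15 between implied length and log2 fold change. FPKM are divided by this length, so that a negative rho with FPKM is in part built in.

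**Figure D1:**
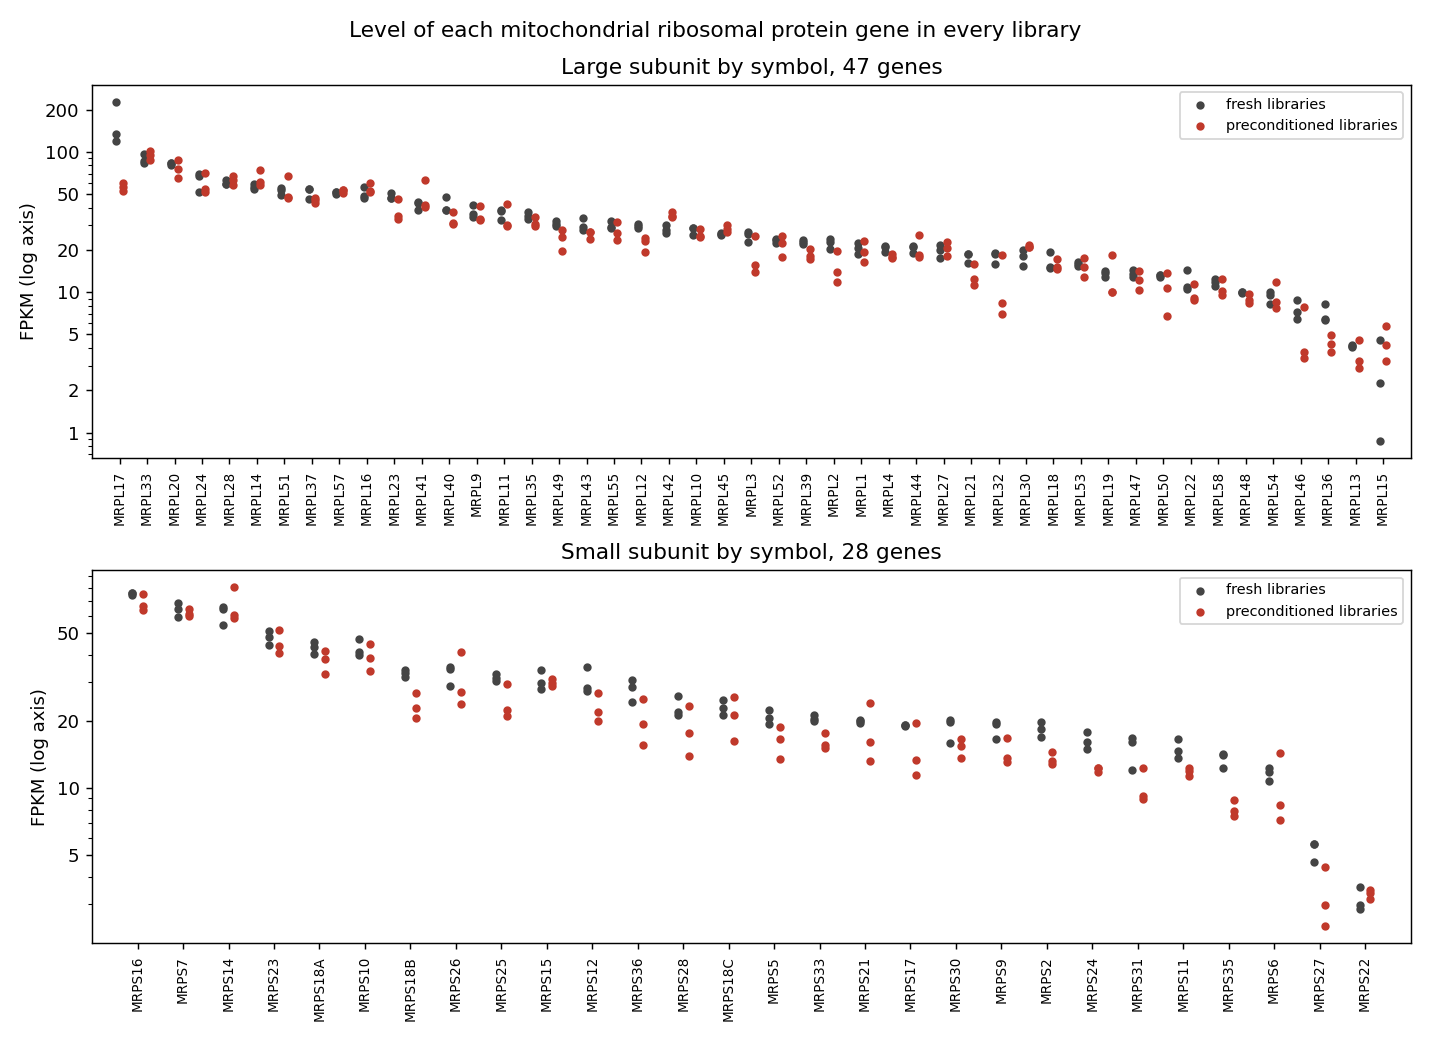
Level of each of the 75 genes in FPKM on a log axis, with a point for each of the 3 fresh and 3 preconditioned libraries and genes ordered by their fresh mean within the large (top) and small (bottom) subunit. MRPL17 leads the fresh libraries with 160 FPKM on average, and its 3 preconditioned points lie far below, whereas most other genes keep their place in the order.

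Between the groups, the mitochondrial ribosomal proteins changed little as a family. A gene is said to have passed the test where edgeR's quasi-likelihood test gave an adjusted p of 0.05 or less, and to be called where it also changed by 1 or more on the log2 scale, in either direction. Of the 75 members, 1 was called, MRPL17, which was lower in the preconditioned group, and 0 were called higher. Over all tested genes, 2.29% were called, 1.2% lower and 1.08% higher. Regardless of the fold, 2 members passed the test, MRPL17 (lower) and MRPL42 (higher), which is 2.67% of the members beside 5.08% of all genes (2.2% lower and 2.88% higher). At a threshold of 0.1 on the adjusted p, 4 members (5.33%) passed beside 19.0% of all genes, the other members being MRPS35 and MRPL30. DESeq2, which called 7.78% of all genes and passed 19.1% regardless of the fold, called 1 member and passed 3. With library size alone as the scaling, 1 member was called and 2 passed, beside 3.76% and 8.92% of all genes. Of the 75 members, 68 had a log2 fold change between −0.5 and 0.5, as had 9394 of the 15029 tested genes. The median log2 fold change was 0.01 over the members and 0.01 over all tested genes. At an unadjusted p of at most 0.05, 7 members were higher and 4 lower, where 15.5% and 15.1% of all genes were.

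The large and small subunit genes had different medians. The median log2 fold change was 0.06 in the large subunit (interquartile range −0.15 to 0.19) and −0.17 in the small subunit (−0.24 to 0.04). Values below 0 were found in 18 of 47 large subunit genes, 18 of 28 small subunit genes and 49.5% of all tested genes. With library size alone, 59 of the 75 members lay below 0 in place of 36, and the median of all genes moved to −0.16 and those of the subunits to −0.11 and −0.34. Relative to the median of all genes, the subunits then lay at 0.05 and −0.17, against 0.05 and −0.18 under TMM. The large subunit lay below the median of all genes in 3 alternatives, at −0.09 with limma on log2(FPKM + 1), −0.03 on log2(FPKM + 0.1) and −0.04 without preconditioned library 1, where the small subunit lay at −0.29, −0.25 and −0.24. Scaling by library size alone turned the split of all genes that passed from 433 higher and 330 lower to 293 higher and 1047 lower. With MRPS18A and MRPS30 counted with the large subunit, to which they belong by structure, and MRPS36 left out, the medians were 0.03 over 49 genes and −0.17 over 25 genes.

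Grouped by descent, the members had nearly equal medians. Genes of bacterial descent (47) and those found only in mitochondria (27) both had a median of 0.01. Within the large subunit by structure the medians were 0.04 and 0.03, and within the small subunit −0.17 and −0.19. MRPS36, which the reference table names KGD4 and which is known as a part of the 2-oxoglutarate dehydrogenase complex, was placed in neither class.

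**Figure D2:**
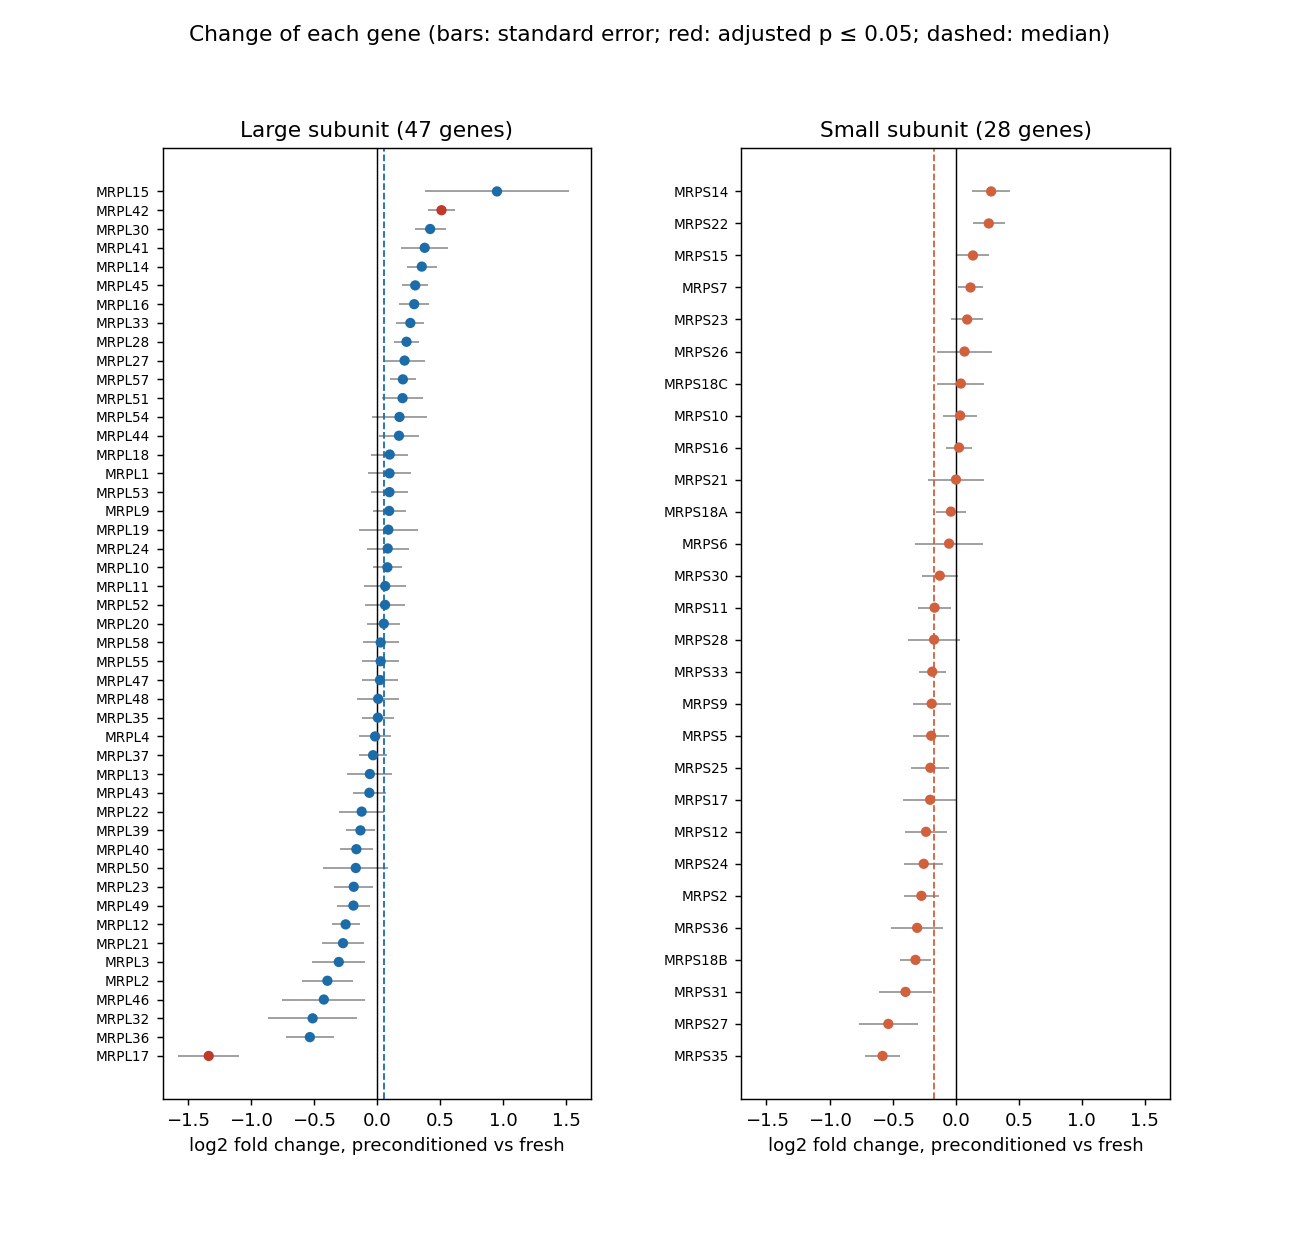
Log2 fold change of preconditioned against fresh for each large (left) and small (right) subunit gene, with its standard error as a bar, the median of the subunit as a dashed line and genes that passed the test in red. Only MRPL17 (−1.33) and MRPL42 (0.51) are red, and the small subunit median lies at −0.17.

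The separation of the subunits could be followed library by library. For each library, the log2 ratio of a gene's CPM to its fresh mean was taken, and the median was formed over each subunit. In the fresh libraries 1 to 3, the large subunit medians were 0.02, 0.02 and −0.04, and the small subunit medians were 0.05, −0.03 and −0.00. In the preconditioned libraries 1 to 3, they were 0.20, 0.01 and −0.05 for the large subunit and −0.01, −0.24 and −0.20 for the small subunit. The large subunit medians of both groups thus overlapped, whereas preconditioned libraries 2 and 3 lay below all fresh libraries in the small subunit. The large minus small difference was −0.03, 0.05 and −0.03 in the fresh libraries and 0.21, 0.25 and 0.15 in the preconditioned libraries, so that the groups did not overlap. The ratios were taken to the mean of the same fresh libraries, so that the fresh medians and differences lie near 0 by construction. The large minus small difference, a score over the members, was not tested.

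Summed levels gave a less even picture. The large subunit FPKM summed to 1.90, 2.09 and 1.85 times the small subunit FPKM in the fresh libraries. In the preconditioned libraries they summed to 2.03, 2.01 and 1.94 times, and the groups overlapped. They also overlapped with subunits by structure, and without the members that have unnamed copies. Without MRPL17, the groups did not overlap. The ratio was then at most 1.79 in the fresh libraries and at least 1.86 in the preconditioned libraries. These ratios were not tested. The members' share of all counts was 0.253% to 0.265% in the fresh libraries and 0.258%, 0.212% and 0.219% in the preconditioned libraries.

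**Figure D3:**
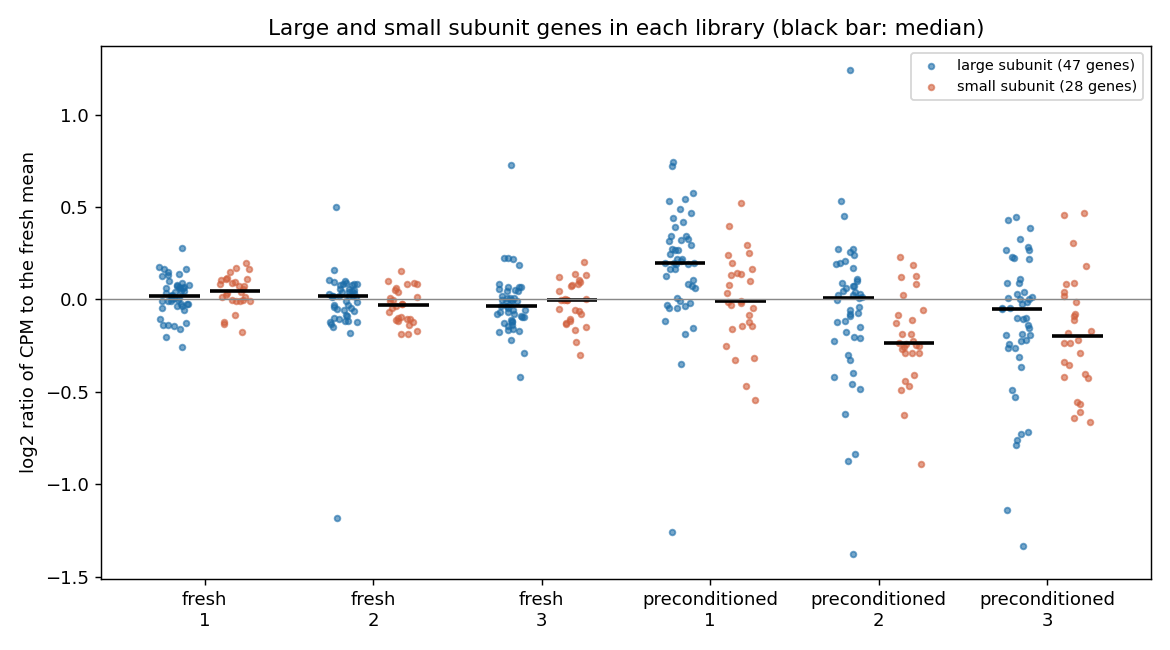
Log2 ratio of CPM to the fresh mean in every library, with a point per gene for the large (blue, 47) and small (orange, 28) subunit and a black bar at the median. The black bars of the 2 subunits lie close together in the fresh libraries, whose mean is the reference, and 0.15 to 0.25 apart in the preconditioned libraries. Preconditioned library 1 lies above the other preconditioned libraries.

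Preconditioned library 1 was the highest of the 3 preconditioned libraries in 62 of 75 members (82.7%), beside 39.6% of all tested genes. It lay above all fresh libraries in 40 members (53.3%), beside 32.2% of all genes, whereas preconditioned libraries 2 and 3 lay below all fresh libraries in 38 and 37 members (50.7% and 49.3%), beside 38.7% and 38.6% of all genes. In 7 members, library 1 was above and libraries 2 and 3 were below all fresh libraries, which is 9.33% of the members beside 3.52% of all genes. The 7 were MRPL3, MRPL13, MRPL19, MRPL32, MRPL50, MRPS17 and MRPS21, listed after their values were seen. MRPL3, whose bacterial counterpart reaches towards the peptidyl transferase centre, had 48.9, 57.2 and 55.6 CPM in the fresh libraries and 59.0, 34.9 and 37.2 CPM in the preconditioned libraries. The median coefficient of variation over the members was 8.03% among fresh and 12.5% among preconditioned libraries, beside 10.9% and 16.8% over the 8711 tested genes in the members' range of expression.

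Without preconditioned library 1, 9 members passed the test (12%), beside 25.2% of all genes, and 8 of the 75 (10.7%) passed as lower, beside 13.9% of all genes. These were MRPL2, MRPL3, MRPL17, MRPL32, MRPL46, MRPS18B, MRPS27 and MRPS35 (lower) and MRPL42 (higher), and MRPL17 and MRPL32 were also called, beside 9.99% of all genes. The large subunit median then was −0.05 and the small subunit median −0.25. When any other single library was left out, 0 members passed edgeR's test, 5 to 8 (6.67% to 10.7%) had an unadjusted p of 0.05 or less, beside 20.2% to 24.2% of all genes, and 14 to 82 genes passed in all.

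Other measures outside the family also separated library 1 from preconditioned libraries 2 and 3, although it did not always lie with the fresh libraries. A list of 6 genes of cycling cells (MKI67, TOP2A, CCNB1, CDK1, PCNA and MCM2) summed to 688, 514 and 490 CPM in the fresh libraries and to 439, 158 and 175 CPM in the preconditioned libraries. All 6 had a log2 fold change below 0, 4 of 6 did not overlap between the groups, and 0 passed edgeR's test, with 4 at an unadjusted p of 0.05 or less and 4 passing with DESeq2. Over all genes, 18.8% were lower without overlap, 15.1% lower at the unadjusted p, and 19.1% passed with DESeq2. All 6 passed edgeR's test without preconditioned library 1, lower in the preconditioned group, beside 13.9% of all genes. The 13 protein genes of the mitochondrial genome summed to 17428, 16350 and 11320 CPM in the fresh and 11315, 5459 and 4271 CPM in the preconditioned libraries. In both sums library 1 was the highest preconditioned library. It lay below every fresh library in the sum of cycling genes and was level with fresh library 3 in the sum of mitochondrial-genome genes. The leukocyte list, of which 4 of 5 genes were tested, summed to 104, 135 and 102 CPM in the fresh and to 125, 314 and 291 CPM in the preconditioned libraries, most of it CD68, a macrophage marker that other cells also express. Here library 1 lay within the fresh range and libraries 2 and 3 lay above it. All 4 had a log2 fold change above 0 and 0 passed edgeR's test, with 1 (CD68) at an unadjusted p of 0.05 or less, and 1 passed with DESeq2 and 1 without preconditioned library 1. PTPRC, the pan-leukocyte marker, was at most 1.5 CPM, and CD3E of T cells was at 0 counts in 5 libraries and 1 count in the other. The part of these lists in the members' values was not tested. The stromal list of 11 genes summed to 546, 840 and 1193 CPM in the fresh and 1404, 2361 and 1331 CPM in the preconditioned libraries and thus did not set library 1 apart.

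MRPL17 (gene ID 100357547) fell most. It had 108, 183 and 96.2 CPM in the fresh libraries and 53.6, 49.3 and 50.8 CPM in the preconditioned libraries, with means of 129 ± 47.2 and 51.2 ± 2.19 CPM (SD, n = 3). The preconditioned libraries were nearly equal and all below the fresh libraries, of which library 2 was far higher than the others. The log2 fold change was −1.33 (SE 0.24, edgeR adjusted p = 0.039). Without fresh library 2 it was −1.0 with an adjusted p of 0.073. Over the 16 alternatives the adjusted p was 5.5e-05 to 0.15, and 8 of them passed.

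MRPL42 (gene ID 100346361), a protein found only in mitochondrial ribosomes, rose. It had 35.3, 38.1 and 33.4 CPM in the fresh and 52.0, 51.7 and 48.6 CPM in the preconditioned libraries. The groups were well apart and each was narrow. The log2 fold change was 0.51 (SE 0.11, edgeR adjusted p = 0.046), and 6 of 16 alternatives passed, with adjusted p values of 0.0053 to 0.16. In the reference table MRPL42 overlaps UBE2N, and 26 of the 73 matched members overlap another gene, among them MRPL12, MRPL14, MRPS6, MRPS14, MRPS22 and MRPS27. Whether reads were counted by strand is not given in the sources used here.

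MRPL30 and MRPS35 came close to the threshold in opposite directions. MRPL30, which has a bacterial counterpart, had 94.7, 84.9 and 72.0 CPM in the fresh and 112, 115 and 110 CPM in the preconditioned libraries (log2 fold change 0.42, SE 0.12, edgeR adjusted p = 0.078). It passed in 0 of 16 alternatives, with adjusted p values of 0.056 to 0.23, and overlaps MITD1 in the reference table. MRPS35, a small subunit protein found only in mitochondria, had 27.7, 27.1 and 23.5 CPM in the fresh and 18.7, 16.7 and 17.0 CPM in the preconditioned libraries. Its log2 fold change was −0.58 (SE 0.14, edgeR adjusted p = 0.053), the lowest of the small subunit, and the groups did not overlap. MRPS35 passed in 4 of 16 alternatives, with adjusted p values of 0.0069 to 0.18.

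**Figure D4:**
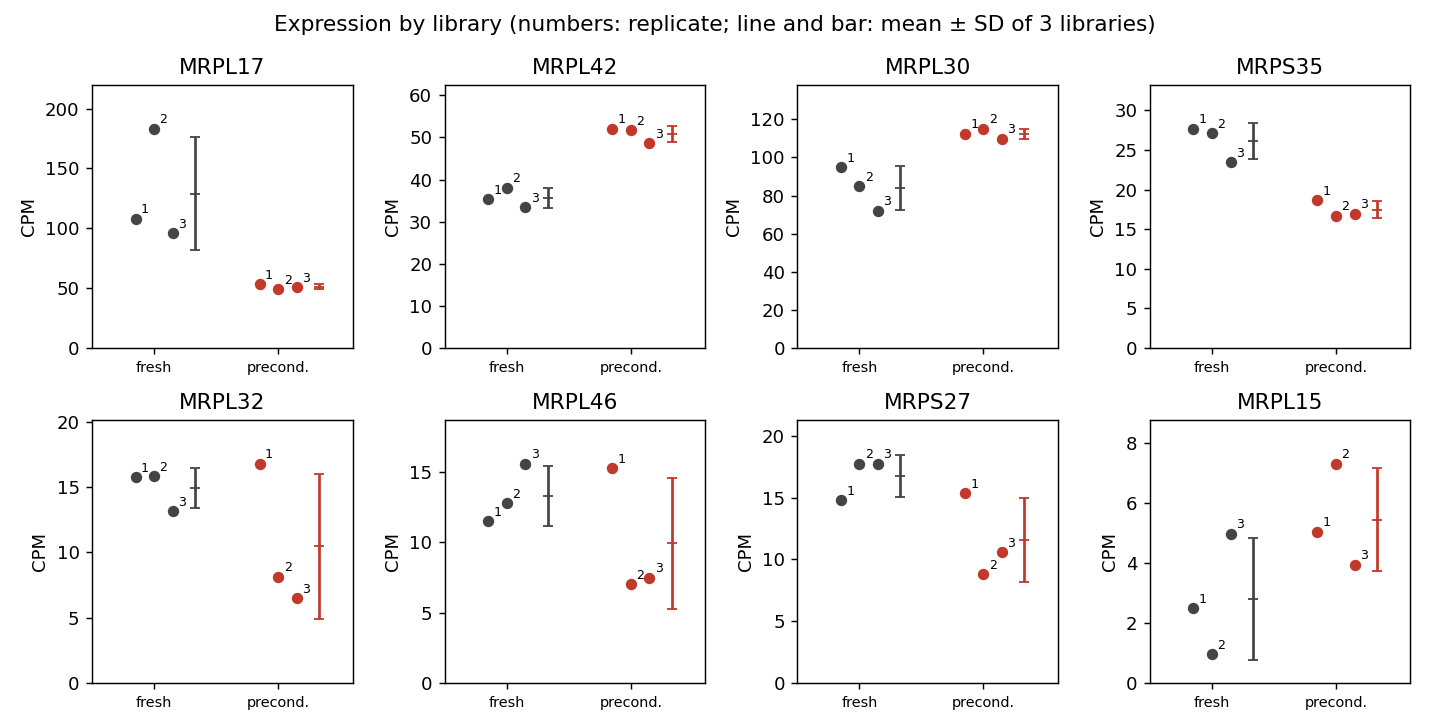
CPM of 8 members in each fresh (grey) and preconditioned (red) library, with replicate numbers beside the points and the mean ± SD of 3 libraries at the side. MRPL17, MRPL42, MRPL30 and MRPS35 separate the groups, whereas in MRPL32, MRPL46 and MRPS27 preconditioned library 1 lies with the fresh libraries and in MRPL15 the groups overlap.

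Non-overlapping groups were found in 19 members. The preconditioned libraries were all higher in 11 members (14.7%), beside 17.9% of all genes, and all lower in 8 members (10.7%), beside 18.8% of all genes. In the large subunit 9 were higher and 3 lower, and in the small subunit 2 were higher and 5 lower. The higher members were MRPL14, MRPL16, MRPL28, MRPL30, MRPL33, MRPL41, MRPL42, MRPL45, MRPL57, MRPS14 and MRPS22, and the lower ones were MRPL12, MRPL17, MRPL36, MRPS2, MRPS18B, MRPS24, MRPS33 and MRPS35. Of these, MRPL17 and MRPL42 passed the test. With its unnamed copy summed in, MRPS33 overlapped between the groups (log2 fold change −0.12 in place of −0.19).

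Among the large subunit genes with the most positive values, MRPL14 binds the assembly factor MALSU1 on the maturing subunit. MRPL14 had 45.9, 47.6 and 43.6 CPM in the fresh and 66.4, 54.0 and 55.1 CPM in the preconditioned libraries (log2 fold change 0.36, adjusted p = 0.10). MRPL41, found only in mitochondria, had 27.0, 24.0 and 27.4 against 43.4, 30.2 and 28.3 CPM (0.38, adjusted p = 0.21), and its difference was widest in preconditioned library 1. The lowest values after MRPL17 belonged to MRPL36, MRPL32, MRPL46 and MRPL2. MRPL36, among the smallest proteins of the bacterial type of large subunit, had 12.6, 12.7 and 16.2 CPM in the fresh and 10.7, 9.72 and 8.20 CPM in the preconditioned libraries (−0.53, adjusted p = 0.12).

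MRPL32, MRPL46 and MRPL2 shared a pattern of 2 low preconditioned libraries. MRPL32, which is matured by a protease of the inner mitochondrial membrane, had 15.8, 15.8 and 13.2 CPM in the fresh and 16.8, 8.12 and 6.49 CPM in the preconditioned libraries (−0.51, adjusted p = 0.36). Without preconditioned library 1 its log2 fold change was −1.04 (adjusted p = 0.014). With its 2 unnamed copies, described further on, summed in, the value over all libraries was −0.18 (adjusted p = 0.72), and MRPL32 itself took 80.4% of the sum in the fresh and 62.9% in the preconditioned libraries. MRPL46, found only in mitochondria, had 11.5, 12.8 and 15.6 against 15.3, 7.0 and 7.47 CPM (−0.42, adjusted p = 0.41). Without preconditioned library 1 MRPL46 lay at −0.89 (adjusted p = 0.024). MRPL2, whose bacterial counterpart lies at the peptidyl transferase centre, had 23.2, 24.1 and 20.5 against 21.9, 16.4 and 13.4 CPM (−0.39, adjusted p = 0.23). Without preconditioned library 1 MRPL2 lay at −0.61 (adjusted p = 0.035). In each of these genes, preconditioned library 1 lay within or near the fresh range and the others lay below it.

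MRPL12 and MRPL58 have roles beyond the frame of the large subunit, and neither passed the test. MRPL12, a protein of the stalk that also binds the mitochondrial RNA polymerase, had 54.0, 57.0 and 55.3 CPM in the fresh and 49.7, 42.0 and 48.4 CPM in the preconditioned libraries. Its groups did not overlap (log2 fold change −0.25, SE 0.11, adjusted p = 0.18). MRPL58, a peptidyl-tRNA hydrolase that frees stalled chains, had 21.2, 18.8 and 19.8 against 23.0, 18.9 and 19.3 CPM (0.03, adjusted p = 0.91), and its sign depended on the scaling, with −0.14 under library size alone.

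In the small subunit, 0 members passed edgeR's test, 2 had an unadjusted p of 0.05 or less, both lower, and 1 (MRPS35) passed with DESeq2. Over all genes, 5.08% passed edgeR's test, 15.1% were lower at the unadjusted p and 19.1% passed with DESeq2. MRPS27, a pentatricopeptide repeat protein, had 14.8, 17.8 and 17.7 CPM in the fresh and 15.3, 8.79 and 10.6 CPM in the preconditioned libraries (−0.53, adjusted p = 0.17). MRPS31 (−0.40), MRPS18B (−0.32) and MRPS36 (−0.31) followed among the lowest values. The most positive values belonged to MRPS14 (0.28), MRPS22 (0.26), MRPS15 (0.14), MRPS7 (0.12) and MRPS23 (0.09), and the signs of MRPS15, MRPS7 and MRPS23 turned under library size alone (−0.03, −0.05 and −0.08). Without preconditioned library 1, MRPS14 fell to 0.13, and MRPS22 stayed at 0.26. MRPS6, which sits at the platform of the bacterial small subunit, varied widely within the preconditioned group, with 17.0, 15.3 and 17.5 CPM in the fresh and 11.2, 13.9 and 23.0 CPM in the preconditioned libraries (−0.05, adjusted p = 0.91). It was highest in preconditioned library 3, the reverse of most members.

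The MRPS18 paralogs occupy different places in the ribosome, MRPS18A in the large and MRPS18B and MRPS18C in the small subunit. MRPS18B had 35.2, 35.9 and 33.5 CPM in the fresh and 31.2, 25.5 and 27.2 CPM in the preconditioned libraries (−0.32, SE 0.12, adjusted p = 0.14), without overlap. MRPS18A had 34.3, 38.6 and 36.3 against 38.5, 31.9 and 36.0 CPM (−0.04, adjusted p = 0.86). MRPS18C had 15.3, 14.2 and 16.5 against 18.9, 12.6 and 15.8 CPM (0.04, adjusted p = 0.90), with −0.12 under library size alone. The paralogs were not compared with each other by a test. MRPS30, also a large subunit protein by structure, lay at −0.13 on the log2 scale (adjusted p = 0.59).

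MRPL15 had the most positive value of all members but rests on few counts and on a near copy. It had 2.49, 0.956 and 4.98 CPM in the fresh and 5.05, 7.32 and 3.95 CPM in the preconditioned libraries (log2 fold change 0.95, SE 0.57, adjusted p = 0.29), and the groups overlapped. A gene without a symbol that is described as the same protein (LOC127487313) had 11.9, 12.7 and 6.67 CPM in the fresh and 7.43, 4.89 and 4.71 CPM in the preconditioned libraries (−0.88, adjusted p = 0.12). With both summed, the log2 fold change was −0.25 (SE 0.20, adjusted p = 0.43), so that the sign of MRPL15 turned. In all, 15 genes without a symbol were described as mitochondrial ribosomal proteins, as copies of 12 members. Of these, 10 were tested with edgeR and 0 passed, beside 5.08% of all genes. At an unadjusted p of 0.05 or less, 1 was lower (LOC127487313), beside 15.1% of all genes. With DESeq2, 1 of 15 passed, lower, beside 19.1% of all genes. Without preconditioned library 1, 1 of 10 passed with edgeR, also lower, beside 25.2%. Reads of members with such copies (among them MRPL32, MRPL48 and MRPS33, which took 80.4%, 58.2% and 67.3% of the summed fresh CPM) may have been divided between them, and their values are uncertain.

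Other proteins of the mitochondrial ribosome do not carry an MRP symbol. Of 6 tested, AURKAIP1, a small subunit protein, rose, with 59.0, 50.7 and 52.0 CPM in the fresh and 77.8, 81.8 and 87.2 CPM in the preconditioned libraries (log2 fold change 0.61, SE 0.11, edgeR adjusted p = 0.038). Over 16 alternatives its adjusted p was 9.4e-04 to 0.15. PTCD3, a small subunit protein with pentatricopeptide repeats, had 37.4, 36.3 and 42.9 against 27.9, 20.0 and 18.3 CPM (−0.82, adjusted p = 0.052). The log2 fold change of CHCHD1, also of the small subunit, was 0.50 (adjusted p = 0.064), and that of DAP3, the GTP-binding protein of the small subunit, was 0.14 (adjusted p = 0.40). GADD45GIP1 of the large subunit (0.02) and the acyl carrier protein NDUFAB1 (0.15) lay near 0. Of the 6, PTCD3 alone thus lay below 0, whereas the median of the MRPS genes was −0.17. With preconditioned library 1 left out, 3 of the 6 passed, 1 of them lower, beside 25.2% of all genes.

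Among the factors that build and run the mitochondrial ribosome, 1 passed the test with all libraries. Of 28 assembly factors and rRNA-modifying enzymes, 20 (71.4%) were below 0 (median −0.16) and 1 passed, where 49.5% of all genes, and 54.0% of those in the members' range of expression, were below 0 and 5.08% passed. This was RPUSD3, a mitochondrial pseudouridine synthase known for sites in mRNA, with 10.6, 17.4 and 13.6 CPM in the fresh and 6.06, 5.6 and 4.71 CPM in the preconditioned libraries (−1.35, SE 0.24, adjusted p = 0.038). Of 20 translation factors and mRNA-handling proteins, 14 (70%) were below 0 (median −0.21) and 0 passed with edgeR or DESeq2, with 2 at an unadjusted p of 0.05 or less in edgeR. LRPPRC, which stabilizes mitochondrial mRNAs, had 242, 227 and 199 against 194, 183 and 185 CPM (−0.25, adjusted p = 0.18), without overlap. Without preconditioned library 1, 7 of the 28 assembly factors passed, all lower, and 3 of the 20 translation factors, 2 of them lower, where 25.2% of all genes passed.

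Of 18 genes for mitochondrial transcription and DNA maintenance, 12 (66.7%) were below 0 (median −0.27), beside 49.5% of all genes. Lower without overlap were 8 (44.4%), beside 18.8% of all genes. At an unadjusted p of 0.05 or less in edgeR, 6 were lower, beside 15.1% of all genes, and 1 (5.56%) passed, beside 5.08%. POLG, the catalytic subunit of the mitochondrial DNA polymerase, had 26.9, 24.6 and 27.8 CPM in the fresh and 15.8, 12.3 and 16.3 CPM in the preconditioned libraries (−0.84, SE 0.16, adjusted p = 0.039). Of 12 tested regulators of mitochondrial gene expression, 1 (8.33%) passed, beside 5.08% of all genes. It was the coactivator PPARGC1B, with 7.68, 9.73 and 10.2 against 4.08, 2.94 and 3.46 CPM (−1.40, SE 0.24, adjusted p = 0.037). The median of this list was −0.13. Of 19 genes of the import machinery, by which the members' proteins enter mitochondria, 11 (57.9%) were below 0 (median −0.04) and 1 (5.26%) passed, beside 49.5% and 5.08% of all genes. TIMM23, the channel of the inner membrane, had 10.7, 16.7 and 3.58 against 1.34, 1.98 and 1.32 CPM (−2.74, SE 0.56, adjusted p = 0.045). Without preconditioned library 1, 6 of the 18 genes for transcription and DNA maintenance passed (5 lower), 2 of the 12 regulators (both lower) and 8 of the 19 import genes (5 lower), again beside 25.2% of all genes. DESeq2 with all libraries passed 2 of 18, 2 of 14 and 4 of 19, beside 19.1% of all genes. When any library other than preconditioned library 1 was left out, RPUSD3, POLG and PPARGC1B no longer passed, and neither did TIMM23 except without fresh library 3, with adjusted p values of up to 0.15.

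The products of the mitochondrial ribosome are the 13 proteins encoded by mitochondrial DNA. All 13 genes had a log2 fold change below 0 (median −1.19), and 5 (38.5%) did not overlap between the groups, beside 18.8% of all genes that did not overlap and were lower. At an unadjusted p of 0.05 or less in edgeR, 2 of the 13 were lower, beside 15.1% of all genes. The library medians of the log2 ratio to the fresh mean were 0.24, 0.11 and −0.43 in the fresh and −0.35, −1.16 and −4.30 in the preconditioned libraries. ND5, a subunit of complex I, passed the test, with 3285, 3355 and 2617 CPM in the fresh and 1949, 1498 and 1787 CPM in the preconditioned libraries (−0.82, adjusted p = 0.040). Its adjusted p was 0.077 to 0.15 when any library other than preconditioned library 1 was left out. Without preconditioned library 1, 2 of the 13 passed, both lower, beside 25.2% of all genes. Preconditioned library 3 was very uneven among them: COX1 had 83.9 CPM there and 906 CPM in library 2, whereas ND4 had 1368 CPM there and 720 CPM in library 2.

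Beside these lists, 2 other families of complex subunits were set side by side with the members. Of 68 tested cytosolic ribosomal proteins, 63 had a log2 fold change above 0 (median 0.52), and 11 passed the test, all higher. Of 61 nuclear subunits of the respiratory chain, 52 were above 0 (median 0.36), and 13 passed the test, all higher, where 2.88% of all genes passed as higher. With preconditioned library 1 left out, 51 and 24 passed, 1 lower in each family, beside 25.2% of all genes, and with any other library left out 0 and 0 to 1 passed. The counts were 2 and 7 with library size alone (8.92% of all genes), 39 of 70 and 24 of 61 with DESeq2 (19.1%), 0 and 0 with limma on log2(FPKM + 1) (0.481%), 1 and 2 on log2(FPKM + 0.1) (1.24%), and 0 and 0 under the replicate block (0.2%). The preconditioned libraries all lay above the fresh libraries in 49 (72.1%) and 44 (72.1%) genes of these families, beside 11 of the 75 members (14.7%) and 17.9% of all genes. The library medians of the log2 ratio to the fresh mean were 0.29, 0.60 and 0.65 for cytosolic ribosomal proteins in preconditioned libraries 1 to 3 and 0.33, 0.38 and 0.33 for respiratory chain subunits. Library 1 was thus not the highest of the preconditioned libraries in either family. The differences between these families and the mitochondrial ribosomal proteins were not tested.

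**Figure D5:**
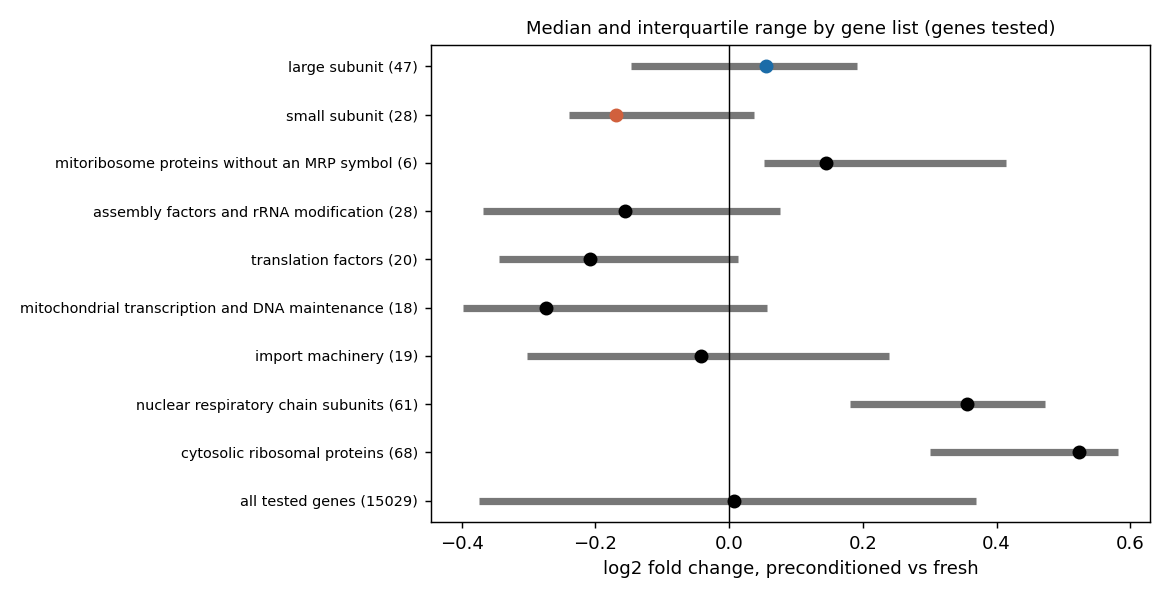
Median (point) and interquartile range (bar) of the log2 fold change of preconditioned against fresh for each list, with the number of genes tested in brackets. The large (0.06) and small (−0.17) subunits of the mitochondrial ribosome lie near all tested genes (0.01), and cytosolic ribosomal proteins (0.52) and respiratory chain subunits (0.36) lie to the right.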

How the data were processed

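Per the labels and the paper's methods, polyA RNA of 3 fresh and 3 preconditioned cultures was sequenced, and reads were aligned by the authors with hisat2, and htseq-count gave the counts per gene. The deposited counts are not normalized. The deposited FPKM are the same counts scaled by each library's total and by 1 length per gene. The genome build, annotation and strand setting are not given in the sources used here, so no coordinates are given, and the reference table (assembly mOryCun1.1) served for names and overlaps only, with 73 of 75 members matched by gene ID. The labels name TRIzol for RNA extraction and the methods another kit.

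Counts were filtered with filterByExpr, scaled by TMM and tested with the robust quasi-likelihood test of edgeR 4.0.16 in R 4.3.3, with condition as the only factor and Benjamini-Hochberg adjustment over 15029 genes. SEs are the log2 fold change divided by the square root of F. Within groups, the chi-square between libraries was 48.1 to 147 per degree of freedom, so that each library counted as 1 sample. The alternatives were DESeq2 1.42.0, its size factors in edgeR, scaling by library size alone, other filters, the mitochondrial genome's genes left out, the replicate block, limma 3.58.1 on log2(FPKM + 1) and log2(FPKM + 0.1), leaving out each library, subunits by structure and, chosen after seeing the data, unnamed copies summed.

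Named were members that passed at 0.05, the 5 most positive and 5 most negative log2 fold changes and the 3 highest and 3 lowest fresh FPKM of each subunit, the 3 with the largest SD of log2 CPM among preconditioned libraries, members with special roles, and pathway genes that passed or are named as background. The members and lists were chosen with earlier results of these data known. Cell culture and staining experiments were not analysed here.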

Additional observations from a re-analysis of the deposited data

How the results depend on the processing

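The number of members called with both cutoffs was 1 under DESeq2, its size factors, library size alone, the filters, the omission of mitochondrial-genome genes and the summed copies, and 0 under limma on either FPKM scale. Without the fold cutoff, 2 members passed, 3 with DESeq2 (beside 19.1% of all genes) or the CPM filter (7.25%), 1 without a filter on low counts (4.38%) and 0 under limma (0.481% on log2(FPKM + 1), 1.24% on log2(FPKM + 0.1)). Limma gave 23 members (30.7%) an unadjusted p of 0.05 or less on either scale, beside 27.9% and 28.2% of all genes. All genes called with both cutoffs numbered 344, 1190 with DESeq2, 565 with library size alone, 59 and 172 with limma, and 14 to 1546 with a library left out. Leaving out each library gave 0 to 2 members called, 0 to 9 passing regardless of the fold, and medians of −0.050 to 0.11 for the large and −0.25 to −0.08 for the small subunit. The values 2, 9 and −0.050 came without preconditioned library 1, and the cause was not tested. The subunit medians moved to −0.11 and −0.34 with library size alone, to −0.12 and −0.32 with limma on log2(FPKM + 1) and to −0.13 and −0.34 on log2(FPKM + 0.1), values that carry no TMM scaling.

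With the replicate number as a block, 0 members were called and 0 passed without the fold cutoff, beside 30 genes in all (0.2%), and MRPL17 and MRPL42 had an adjusted p of 0.084 and 0.12. The correlations of the deviations of same-numbered libraries were −0.067, −0.077 and −0.12, and 0 of 6 libraries correlated best with their own number. These values gave no sign of a pairing by number, but so few libraries cannot exclude one, and the sources used here do not state one.

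No member that passed turned its sign under any alternative. Of all 75 members, 23 turned with library size alone and 25 under limma on each scale, all to below 0, 20 without preconditioned library 1, 18 of them to below 0, and 3 to 8 with any other library left out. The members that turned among those chosen by the naming rule are given with their values, and MRPL19, MRPL48, MRPL50 and MRPS21 also turned, with ranges over the alternatives of −0.25 to 0.24, −0.16 to 0.068, −0.40 to 0.070 and −0.26 to 0.18. With library size alone, limma on log2(FPKM + 1) and limma on log2(FPKM + 0.1), the values were −0.11, −0.12 and −0.12 for MRPL20, −0.14, −0.13 and −0.14 for MRPL58, −0.031, −0.026 and −0.027 for MRPS15, −0.14, −0.14 and −0.15 for MRPS16, −0.12, −0.14 and −0.14 for MRPS18C, −0.077, −0.080 and −0.082 for MRPS23, and −0.051, −0.048 and −0.049 for MRPS7. With a library left out, the members chosen by that rule that turned ranged from −0.27 to 0.082 for MRPL13, −0.048 to 0.17 for MRPL20, −0.076 to 0.084 for MRPL58, −0.041 to 0.084 for MRPS16, −0.11 to 0.035 for MRPS18A, −0.12 to 0.18 for MRPS18C, −0.0073 to 0.17 for MRPS23 and −0.40 to 0.14 for MRPS6. MRPL15 turned to −0.25 with its copy summed.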
